A study of Mus musculus with 8 samples.

Results

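Wnt proteins are secreted, lipid-modified ligands that bind Frizzled receptors on neighbouring cells. Some stabilise beta-catenin, which then acts with the LEF/TCF factors on target genes, and others act without beta-catenin on cell polarity and movement. In embryonic skin, Wnt ligands from the epithelium and beta-catenin in the dermis are needed before hair placodes form, and Wnt10b is among the early markers of the placode. The 10 ligands described here are Wnt3, Wnt3a, Wnt4, Wnt5a, Wnt6, Wnt7b, Wnt10a, Wnt10b, Wnt11 and Wnt16, taken by symbol from 21882 gene symbols, of which 19 are Wnt genes. Each was found in all 3 tables, and its level is the sum over its transcripts, 3 for Wnt7b and 1 for each of the other 9.

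RNA came from skin of C57BL/6 mouse embryos, 8 libraries in all. At embryonic day 16.5 (E16.5), 2 libraries of whole skin labelled Cyp26b1-/- were set against 2 of wild-type skin. At E18.5, dermis and epidermis were sequenced apart, each with 1 library labelled En1cre;Cyp26b1f/- and 1 labelled Cyp26b1f/+, the control. The P450 enzyme made from Cyp26b1 degrades retinoic acid. En1cre is a Cre recombinase under the Engrailed 1 gene, which is active in forerunners of trunk dermis and in some ectoderm. The En1cre;Cyp26b1f/- embryos also carry 1 working Cyp26b1 allele fewer than the control in every cell, so loss in the En1cre cells and the lower gene dose elsewhere cannot be told apart. The control label names no En1cre, so the presence of the Cre itself cannot be told apart from these either. The E18.5 libraries bear the numbers 7 and 1 in dermis (mutant and control) and 9 and 6 in epidermis, and the labels do not tie the dermis to the epidermis of an embryo.

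Levels are in FPKM, the fragments of a transcript divided by its length and by the size of the library. At E16.5 each column holds both libraries of its group together, so no spread between libraries can be given, and at E18.5 there were no replicates. Read depth is unknown. Folds are given as log2((mutant FPKM + 1)/(control FPKM + 1)) minus the median of all genes that reached 1 FPKM in one of the groups. That median was 0.43 in E16.5 skin, 0.12 in E18.5 dermis and -0.18 in E18.5 epidermis. The targeted gene was not lower in the mutant libraries: Cyp26b1 stood at 58.2 FPKM in Cyp26b1-/- and 35.0 FPKM in wild-type skin, at 102 FPKM in mutant and 54.2 FPKM in control dermis, and at 13.7 FPKM in mutant and 4.97 FPKM in control epidermis. Which exons are deleted is not stated in the labels, so this level checks no label.

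The labelled tissues were checked against markers. The dermis libraries held the fibroblast gene Twist2 at 312 FPKM in mutant and 387 FPKM in control, against 1.39 FPKM in mutant and 5.34 FPKM in control epidermis. They also held genes of basal keratinocytes: Krt5 stood at 1806 FPKM in mutant and 6265 FPKM in control dermis, and at 704 FPKM in mutant and 2634 FPKM in control epidermis. The other basal markers were likewise higher in dermis in both pairs, except Krt15, which was lower (1447 FPKM in control dermis and 1525 FPKM in control epidermis). Suprabasal Ivl, Dsg1a and Dsc1 were far lower in dermis, with Ivl at 7.62 FPKM in control dermis and 334 FPKM in control epidermis. Krt1, Krt10 and Lor had failed estimates in epidermis. Both dermis libraries therefore held epithelial RNA beside that of fibroblasts. In bulk tissue, fewer cells of a type and less RNA per cell cannot be told apart.

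The 10 genes lie on 7 chromosomes of build mm9 and are annotated as protein coding. Wnt6 (chromosome 1, 74818466 to 74831893) and Wnt10a (chromosome 1, 74838593 to 74850749) follow each other on the plus strand with a gap of 6.7 kb. Wnt10b (chromosome 15, 98602183 to 98608581, minus strand) lies 11.7 kb from Wnt1 on the opposite strand. Wnt3a (chromosome 11, 59061544 to 59104253, minus strand) and Wnt3 (chromosome 11, 103635489 to 103679335, plus strand) neighbour Wnt9a and Wnt9b, at 16.2 and 24.4 kb. The others are Wnt4 (chromosome 4, 136833550 to 136852694, plus strand), Wnt5a (chromosome 14, 29318659 to 29338620, plus strand), Wnt7b (chromosome 15, 85365867 to 85412251, minus strand), Wnt11 (chromosome 7, 105987355 to 106003257, plus strand) and Wnt16 (chromosome 6, 22238227 to 22248522, plus strand).

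Promoters from RefSeq (build GRCm38.p6) were matched for 7 of the 10 ligands, and those of Wnt6, Wnt16 and Wnt11 are shown because these genes rose, fell and passed no test in E16.5 skin. Each run is the 250 bases before an annotated start, 5′ to 3′. The windows are chr1:74771642-74771891 for Wnt6, chr6:22287977-22288226 for Wnt16 and chr7:98834862-98835111 for the first of 2 listed starts of Wnt11, each on the plus strand. Capitals mark TCAAAG (a core of LEF/TCF sites), AGGTCA (a motif bound by nuclear receptors), CCAAT and TATAAA, searched on both strands.
Wnt6: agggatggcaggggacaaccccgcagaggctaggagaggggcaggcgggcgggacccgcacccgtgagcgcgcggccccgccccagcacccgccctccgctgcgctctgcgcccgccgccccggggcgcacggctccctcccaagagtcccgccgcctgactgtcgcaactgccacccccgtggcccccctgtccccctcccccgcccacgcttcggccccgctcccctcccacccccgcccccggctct
Wnt16: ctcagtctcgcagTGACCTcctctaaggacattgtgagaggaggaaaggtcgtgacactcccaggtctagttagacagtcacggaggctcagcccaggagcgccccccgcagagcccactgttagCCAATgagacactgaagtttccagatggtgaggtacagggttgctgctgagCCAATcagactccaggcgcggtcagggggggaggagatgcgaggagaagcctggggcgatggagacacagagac
Wnt11: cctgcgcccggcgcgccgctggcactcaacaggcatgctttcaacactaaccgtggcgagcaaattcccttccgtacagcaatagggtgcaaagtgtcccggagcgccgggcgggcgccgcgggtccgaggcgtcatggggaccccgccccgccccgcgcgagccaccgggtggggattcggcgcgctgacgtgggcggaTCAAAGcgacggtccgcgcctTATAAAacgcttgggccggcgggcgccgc

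The Wnt11 window holds TCAAAG 50 bases and TATAAA 29 bases before the start. The Wnt16 window holds CCAAT at 125 and 74 bases before the start and AGGTCA on the minus strand at 237 bases. The Wnt6 window holds none of the 4 motifs and has a GC content of 79.6%. Among 32851 promoter windows of this length, 13.8% hold TCAAAG, 14.0% AGGTCA, 33.8% CCAAT and 12.4% TATAAA. A direct repeat of AGGTCA with 5 bases between the copies, a form of the retinoic acid response element, was in 3 of these windows and in none of the ligands' windows.

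Wnt4 and Wnt7b were the most abundant of the ligands in whole skin and in epidermis. In E16.5 skin the 10 ligands summed to 265 FPKM in Cyp26b1-/- and 198 FPKM in wild type, and Wnt4 with Wnt7b made up 52.8% of that sum in Cyp26b1-/- and 47.7% in wild type. In E18.5 epidermis this pair made up 88.1% of 253 FPKM in mutant and 79.8% of 239.7 FPKM in control. In E18.5 dermis the sum was 179.5 FPKM in mutant against 616 FPKM in control, and the pair made up 32.5% in mutant and 44.8% in control. FPKM are scaled to transcript length, so levels can be set between genes.

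**Figure D1:**
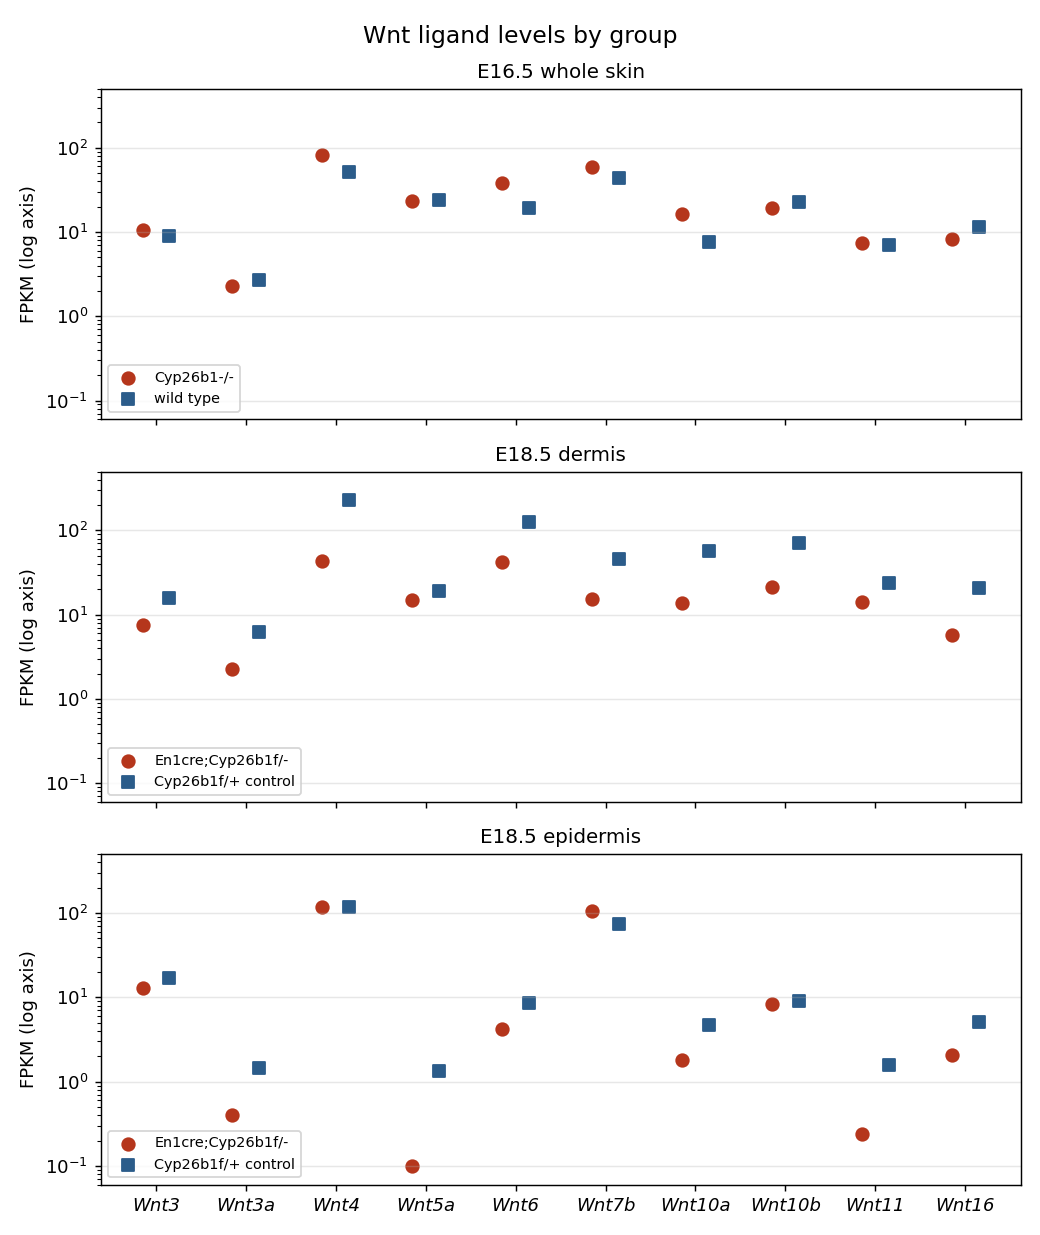
FPKM of each ligand on a log axis, in 3 panels for E16.5 whole skin, E18.5 dermis and E18.5 epidermis, with circles for the mutant group and squares for the control. In dermis every circle lies below its square, while in epidermis Wnt4 stood at 117 FPKM in both libraries and Wnt5a at 0.10 FPKM in mutant against 1.34 FPKM in control.

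The order of levels in wild-type E16.5 skin was Wnt4 (51.0 FPKM), Wnt7b (43.2), Wnt5a (23.7), Wnt10b (22.5), Wnt6 (19.2), Wnt16 (11.6), Wnt3 (8.94), Wnt10a (7.66), Wnt11 (7.05) and Wnt3a (2.67). No error of a single column is given in the tables, so gaps between neighbours were set beside the SE implied by the authors' test of the fold. By that measure Wnt5a and Wnt10b, and Wnt10a and Wnt11, lay within 1 SE of each other in wild-type skin. In Cyp26b1-/- skin, Wnt6 took the third and Wnt10a the sixth place, and Wnt16 and Wnt11 alone lay within 1 SE.

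At E18.5 more neighbours lay within 1 SE of each other. In mutant dermis Wnt4 and Wnt6 led within 1 SE of each other, Wnt10b, Wnt7b, Wnt5a, Wnt11 and Wnt10a followed with each neighbouring pair within 1 SE, and Wnt3a was lowest. In control dermis Wnt4 led, Wnt6 came next, and Wnt10b, Wnt10a and Wnt7b followed with neighbours within 1 SE. In mutant epidermis Wnt4 and Wnt7b lay within 1 SE of each other and Wnt5a was lowest, and in control epidermis Wnt4 lay above Wnt7b, with Wnt11, Wnt3a and Wnt5a at the low end within 1 SE of their neighbours.

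In E16.5 Cyp26b1-/- skin, Wnt6 and Wnt10a rose and Wnt5a, Wnt10b and Wnt16 fell relative to the median gene. Wnt6 stood at 37.8 FPKM in Cyp26b1-/- and 19.2 FPKM in wild-type skin, a log2 fold of 0.51. Wnt10a, whose human counterpart is mutated in ectodermal dysplasias of teeth and hair, stood at 16.4 FPKM in Cyp26b1-/- and 7.66 FPKM in wild-type skin (0.58). These neighbours on chromosome 1 were the members that rose. Calls are from the authors' deposited statistic, recomputed after subtracting the median deposited log2 fold of 0.47, with Benjamini-Hochberg adjustment over all tested transcripts. The deposited log2 folds minus that median were 0.50 (SE 0.15 implied by the authors' deposited table, adjusted p = 0.00834 in the test recomputed from it) for Wnt6 and 0.62 (SE 0.19, adjusted p = 0.00788) for Wnt10a.

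Wnt10b, a placode ligand of the beta-catenin branch, stood at 19.5 FPKM in Cyp26b1-/- and 22.5 FPKM in wild-type skin, a log2 fold of -0.62 relative to the median gene. Wnt16 stood at 8.34 FPKM in Cyp26b1-/- and 11.6 FPKM in wild-type skin (-0.86). Wnt5a, a ligand of the branch without beta-catenin that marks the mesenchyme below follicles, stood at 23.1 FPKM in Cyp26b1-/- and 23.7 FPKM in wild-type skin (-0.46). The deposited levels of Wnt5a thus nearly coincided, and its fall is relative to a median gene that was higher in Cyp26b1-/-. The deposited log2 folds minus the median were -0.68 (SE 0.16, adjusted p = 0.000283), -0.95 (SE 0.21, adjusted p = 9.47e-05) and -0.51 (SE 0.14, adjusted p = 0.00303) for Wnt10b, Wnt16 and Wnt5a in the test recomputed from the authors' statistic.

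The other 5 ligands passed no threshold in this test. Wnt4 stood at 81.6 FPKM in Cyp26b1-/- and 51.0 FPKM in wild-type skin (adjusted p = 0.405 in the test recomputed from the authors' statistic), and Wnt3 at 10.5 FPKM in Cyp26b1-/- and 8.94 FPKM in wild-type skin (adjusted p = 0.384). Wnt3a, a ligand of the beta-catenin branch, stood at 2.29 FPKM in Cyp26b1-/- and 2.67 FPKM in wild-type skin (adjusted p = 0.0617, likewise recomputed from the authors' statistic). Wnt11 stood at 7.32 FPKM in Cyp26b1-/- and 7.05 FPKM in wild-type skin (adjusted p = 0.117, likewise recomputed from the authors' statistic). The main transcript of Wnt7b stood at 56.1 FPKM in Cyp26b1-/- and 41.7 FPKM in wild-type skin (adjusted p = 0.883, likewise recomputed from the authors' statistic), and its other transcripts reached at most 1.99 FPKM.

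Of the 10 ligands, 2 rose and 3 fell, where 8.26% of 16263 tested genes rose and 10.03% fell. Without centring, the authors' deposited table called 4 ligands higher (Wnt4, Wnt6, Wnt7b and Wnt10a) and Wnt16 alone lower, where 54.7% of all genes were called higher and 3.44% lower, and higher genes made up 94.1% of calls against 45.2% after centring. The calls of Wnt6, Wnt10a and Wnt16 were thus common to both scalings. The subtracted median was positive, so any rise after centring is larger without it. For Wnt6 and Wnt10a the shared call was therefore fixed in advance, and only the fall of Wnt16 could have been lost. The median log2 fold of the 10 ligands was -0.30, with the median of all genes at 0 by construction. The labels do not say that the 2 libraries of a group came from separate embryos, so these p-values describe the libraries.

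**Figure D2:**
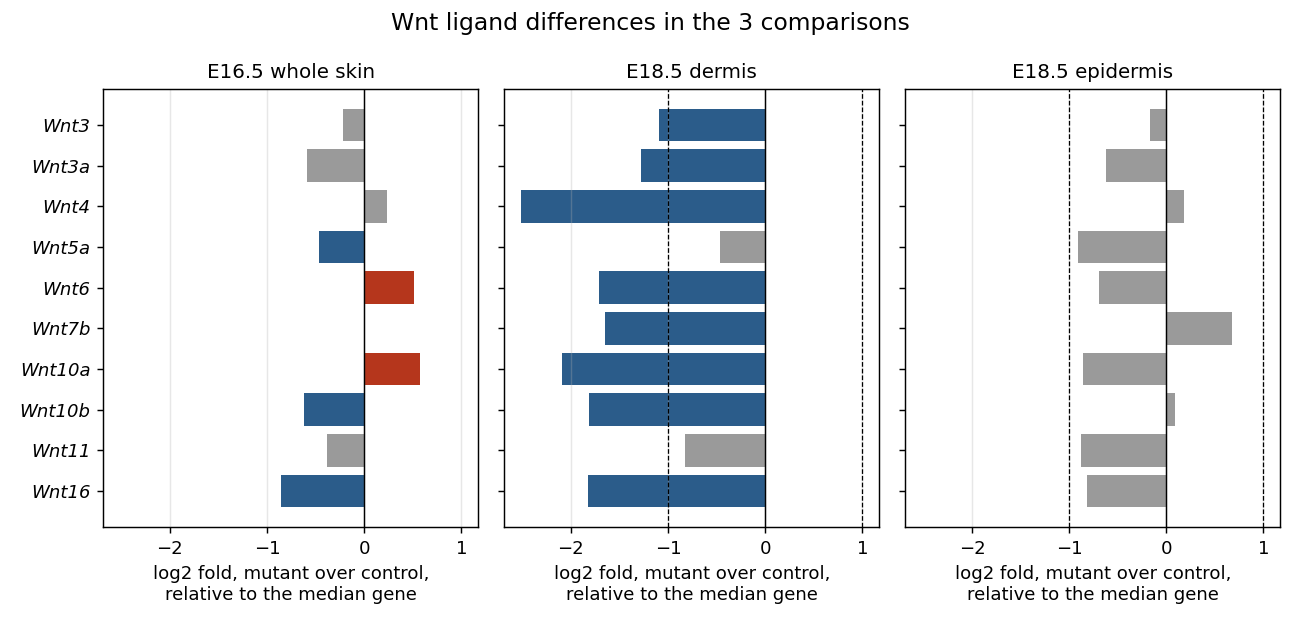
Bars give the log2 fold of each ligand relative to the median gene, mutant over control, in the 3 comparisons. At E16.5 red bars rose and blue bars fell in the centred test, while Wnt3 (-0.21) and Wnt11 (-0.38) change sign without centring and Wnt4 and Wnt7b are then called higher. At E18.5 blue marks a fold of at least 2, shown by the dashed lines, with no test, and 8 of 10 bars in dermis pass it.

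Markers of the hair follicle moved in the same E16.5 libraries. Of 7 follicle epithelium genes 1 rose and 5 fell, with summed levels of 35.8 FPKM in Cyp26b1-/- and 142 FPKM in wild-type skin. Krt71, an inner root sheath keratin, stood at 0.28 FPKM in Cyp26b1-/- and 47.9 FPKM in wild-type skin. All 5 lens crystallins on the marker list rose, with summed levels of 1887 FPKM in Cyp26b1-/- and 6.19 FPKM in wild-type skin. Of the other marker lists, 3 of 4 suprabasal keratinocyte genes, 4 of 5 adipocyte genes and 1 of 6 basal keratinocyte genes fell and 0 rose in each. Fibroblast genes gave 2 falls of 4, skeletal muscle genes 1 fall of 5 and endothelial genes 0 falls of 5, with 0 rises in each. Of 7 dermal condensate and papilla genes 4 fell and 1 rose, and of 5 erythroid genes 2 rose and 0 fell. Without centring the counts lower were 2 suprabasal, 1 adipocyte, 3 condensate, 0 fibroblast and 0 muscle genes. The part of these cell types in the ligands' values, Wnt5a of the mesenchyme included, was not tested. Folds were also lower for GC-rich genes (Spearman rho of -0.33, a description over genes that share libraries), and with centring on transcripts of like GC content the 5 calls of ligands were the same.

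Downstream of the ligands, beta-catenin target genes mostly fell at E16.5 after centring. Of 14 target genes 1 rose and 8 fell, with a list median of -0.46, while without centring the authors' deposited table had 3 higher and 0 lower. The feedback inhibitor Axin2 stood at 34.5 FPKM in Cyp26b1-/- and 28.1 FPKM in wild-type skin and passed no threshold (-0.14). Lef1, a nuclear partner of beta-catenin, fell to 21.3 FPKM in Cyp26b1-/- skin, against 24.3 FPKM in wild type (-0.61), and the transcription factor Sp5 fell to 1.36 FPKM, against 2.05 FPKM in wild type (-0.80). Dkk4, a secreted inhibitor that blocks the co-receptor Lrp6, was the target that rose, to 14.5 FPKM in Cyp26b1-/- against 5.06 FPKM in wild-type skin (0.93).

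Among secreted inhibitors, a list that also counts the Dkk receptors Kremen1 and Kremen2, 2 rose and 1 fell of 13. The authors' deposited table, which is not centred, had 8 higher and none lower. Sfrp5, which binds Wnt ligands outside the cell, rose to 33.3 FPKM in Cyp26b1-/- skin, against 9.74 FPKM in wild type (1.25). R-spondins, which enhance Wnt signals, and their receptors gave 0 rises and 4 falls of 9 after centring, and 3 higher and 1 lower without it. Lgr6, an R-spondin receptor of follicle stem cells, fell to 4.78 FPKM in Cyp26b1-/- skin, against 7.93 FPKM in wild type (-1.06). Of 16 receptors and co-receptors 1 rose and 0 fell, and without centring 8 were called higher. The acyltransferase Porcn and the carrier Wls, which Wnt ligands need for secretion, passed no threshold after centring, with Porcn at 8.41 FPKM in Cyp26b1-/- and 6.05 FPKM in wild-type skin and Wls at 114 FPKM in Cyp26b1-/- and 75.4 FPKM in wild-type skin.

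Of 9 other Wnt ligands, 6 were tested at E16.5, 0 rose and 0 fell after centring, and 2 were called higher without it. Of 5 genes of secretion and extracellular editing 0 rose and 1 fell, the ligand-inactivating enzyme Notum, at 2.16 FPKM in Cyp26b1-/- and 2.83 FPKM in wild-type skin, and 3 were called higher and 0 lower without centring. The cytoplasmic and nuclear list gave 1 rise and 3 falls of 15, against 8 higher and 0 lower without centring. The planar polarity and calcium list gave 0 rises and 3 falls of 10, against 5 higher and 1 lower without centring.

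In E18.5 dermis all 10 ligands were lower in the En1cre;Cyp26b1f/- library than in the control, and 8 of them by at least 2-fold relative to the median gene. Over all 13398 genes at 1 FPKM, 13.9% were lower and 14.0% higher by that measure. Wnt4 had the lowest fold, at 43.2 FPKM in mutant against 230.2 FPKM in control dermis (-2.51). Wnt10a stood at 13.7 FPKM in mutant and 56.4 FPKM in control (-2.09), and Wnt16 at 5.67 FPKM in mutant and 20.7 FPKM in control (-1.83). With 1 library a group there is no test, and the SE that the authors' deposited statistic implies for the deposited log2 fold of these 3 genes was 0.66 to 0.73, an error of the read model and not a spread between embryos.

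Wnt10b stood at 21.2 FPKM in mutant and 70.6 FPKM in control dermis, a log2 fold of -1.81 relative to the median gene. Wnt6 stood at 41.9 FPKM in mutant and 127 FPKM in control (-1.71), and Wnt7b at 15.2 FPKM in mutant and 45.9 FPKM in control (-1.65). The 3 Wnt7b transcripts were each lower in mutant dermis. Wnt3a stood at 2.28 FPKM in mutant and 6.30 FPKM in control dermis (-1.28), and Wnt3 at 7.49 FPKM in mutant and 15.6 FPKM in control (-1.09).

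The 2 ligands within 2-fold were Wnt5a and Wnt11, both known as ligands of the branch without beta-catenin. Wnt5a stood at 14.8 FPKM in mutant and 19.0 FPKM in control dermis (-0.46), and Wnt11 at 14.2 FPKM in mutant and 23.7 FPKM in control dermis (-0.83). The median log2 fold of the 10 ligands was -1.68. When each gene was set against genes of like GC content, 5 of 10 were at least 2-fold lower, where 11.3% of all genes were, and all 10 folds stayed below 0. Wnt5a then had -0.79 and Wnt11 -0.54, and Wnt6 (-0.83), Wnt7b (-0.88) and Wnt3a (-0.91) also lay within 2-fold. The split of Wnt5a and Wnt11 from the other ligands thus did not hold in that setting. Wnt10a had -1.20. Wnt4 (-2.40) and Wnt16 (-2.01) were little moved by that setting.

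Epithelial markers were lower in the same mutant dermis library. Of 7 basal keratinocyte genes 6 were at least 2-fold lower (median -1.51), with summed levels of 3797 FPKM in mutant and 12396 FPKM in control dermis. Of 7 follicle epithelium genes 6 were lower (median -2.21), with sums of 114 FPKM in mutant and 1484 FPKM in control, and of 6 suprabasal genes 6 were lower (median -1.85). None of these markers was at 0 in either library. The lower suprabasal genes include 1, Dsc1, that reached 1 FPKM through the control library alone, and the lower basal and follicle genes include none. Dermal condensate and papilla genes gave 2 lower and 1 higher of 7, endothelial genes 5 higher of 5 (2 by like GC content), and skeletal muscle genes 4 higher of 5. Fibroblast genes gave 1 higher and 0 lower of 4 (median 0.73), and Col1a1, Col1a2 and Col3a1 had failed estimates. Among these 4, Dcn stood at 358 FPKM in mutant and 53.8 FPKM in control, while Twist2 was below the median gene (-0.43). Adipocyte genes gave 3 lower and 2 higher of 5 (median -3.87), with the adipokine Adipoq at 3.50 FPKM in mutant and 59.5 FPKM in control dermis and the lipid carrier Fabp4 at 317 FPKM in mutant and 73.2 FPKM in control. Of the 3 lower adipocyte genes 1, Cfd, reached 1 FPKM through the control library alone. The part of these cell types in the ligands' values was not tested.

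**Figure D3:**
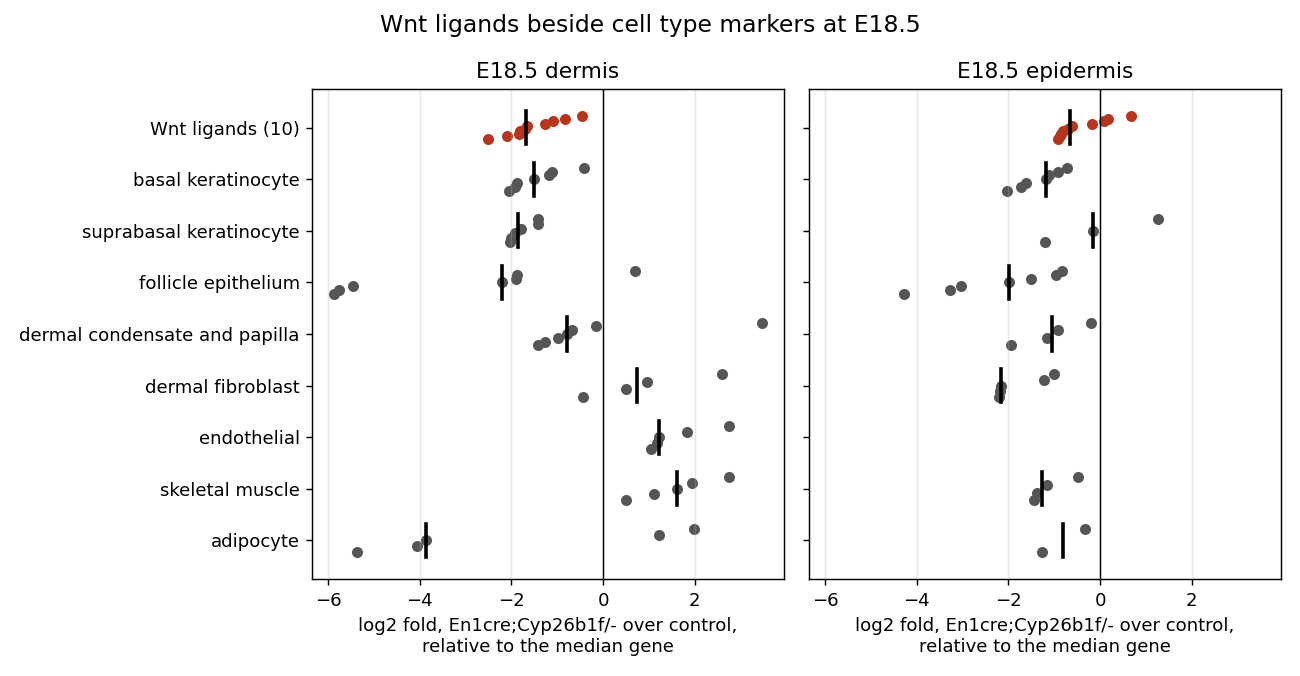
Points are log2 folds relative to the median gene, En1cre;Cyp26b1f/- over control, for the 10 ligands in red and for markers of at least 1 FPKM in grey, with bars at the medians. In dermis the ligands (median -1.68) lie among basal (-1.51), suprabasal (-1.85) and follicle (-2.21) epithelial genes. The medians of condensate and papilla genes (-0.79) and of adipocyte genes (-3.87) are negative as well. The fibroblast median (0.73) and the endothelial and muscle genes lie to the right.

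The other 9 Wnt ligands included both directions in dermis. Wnt2 stood at 19.4 FPKM in mutant and 6.00 FPKM in control dermis (1.42), and Wnt7a, which like Wnt7b is made in epithelia, at 2.09 FPKM in mutant and 8.32 FPKM in control (-1.72). Of the 5 that reached 1 FPKM, 1 was at least 2-fold higher and 1 lower. Among 15 receptors and co-receptors at that level 4 were lower and 0 higher (6 lower by like GC content), with Fzd10 at 42.9 FPKM in mutant and 101 FPKM in control. Among R-spondins and their receptors 4 of 7 were lower and 0 higher, with Lgr6 at 10.8 FPKM in mutant and 55.6 FPKM in control dermis (-2.39).

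Secreted inhibitors, with Kremen1 and Kremen2 again counted among them, gave 2 higher and 2 lower of 13 in dermis, and 1 higher and 3 lower by like GC content. Wif1, which binds Wnt ligands, stood at 105.5 FPKM in mutant and 43.2 FPKM in control (1.15), and Sfrp5 at 11.1 FPKM in mutant and 3.63 FPKM in control (1.26). Kremen2, a receptor for Dkk proteins, stood at 46.7 FPKM in mutant and 169 FPKM in control (-1.96), and Sostdc1, an inhibitor of Wnt and BMP signals, at 36.4 FPKM in mutant and 126 FPKM in control (-1.88). Beta-catenin target genes gave 4 lower and 0 higher of 14 (median -0.59), with Sp5 at 2.49 FPKM in mutant and 14.7 FPKM in control (-2.29) and Axin2 at 31.1 FPKM in mutant and 53.1 FPKM in control (-0.88). Lef1 (-0.62), Dkk4 (0.54), Porcn (-0.77) and Wls (-0.28) were within 2-fold. The planar polarity and calcium list gave 3 lower of 9, with Vangl2, a core polarity protein, at 21.6 FPKM in mutant and 78.1 FPKM in control, and the cytoplasmic and nuclear list gave 2 lower of 16 (1 higher and 1 lower by like GC content). In the list of secretion and extracellular editing, 1 was higher and 1 lower of 5, and 0 passed 2-fold by like GC content.

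In E18.5 epidermis 0 of 10 ligands passed 2-fold in either direction, where 4.86% of 11362 genes were lower and 3.49% higher. Wnt4 stood at 117 FPKM in both the mutant and the control library (0.18 relative to the median gene). Wnt7b stood at 105 FPKM in mutant and 74.1 FPKM in control epidermis (0.68). Wnt10b stood at 8.37 FPKM in mutant and 8.95 FPKM in control (0.09), and Wnt3 at 12.98 FPKM in mutant and 16.8 FPKM in control (-0.17). Wnt4 and Wnt10b were thus nearly level between the libraries, and the sign of Wnt10b turns without centring (-0.09). Wnt3 had -0.35 without centring.

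The other 6 were lower in mutant epidermis by less than 2-fold on this scale. Wnt6 stood at 4.19 FPKM in mutant and 8.51 FPKM in control (-0.70), Wnt10a at 1.81 FPKM in mutant and 4.74 FPKM in control (-0.85), and Wnt16 at 2.06 FPKM in mutant and 5.08 FPKM in control (-0.81). Wnt5a stood at 0.10 FPKM in mutant and 1.34 FPKM in control (-0.91), Wnt11 at 0.24 FPKM in mutant and 1.58 FPKM in control (-0.88), and Wnt3a at 0.40 FPKM in mutant and 1.44 FPKM in control (-0.62). The last 3 passed the level of 1 FPKM through the control library alone. The added 1 FPKM shrinks the folds of such low genes, and with 0.1 FPKM in its place Wnt5a had -2.64, Wnt11 -2.10, and 5 of 10 ligands were at least 2-fold lower, where 12.3% of all genes were.

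Dermal and follicle markers were also lower in mutant epidermis. Of 5 fibroblast genes at 1 FPKM 5 were at least 2-fold lower (median -2.16), with sums of 61.7 FPKM in mutant and 325 FPKM in control, and of 7 follicle epithelium genes 5 were lower (median -2.0), with sums of 9.11 FPKM in mutant and 115 FPKM in control. Of 7 basal keratinocyte genes 5 were lower (median -1.17), with sums of 1873 FPKM in mutant and 5740.03 FPKM in control. Among the lower genes, 1 follicle gene (Shh) and 1 basal gene (Itga6) reached 1 FPKM through the control library alone. The filter favours such lower genes. None of the lower fibroblast genes did so. Suprabasal genes gave 1 higher and 1 lower of 3. Ivl stood at 709 FPKM in mutant and 334 FPKM in control (1.26), and Dsg1a at 55.0 FPKM in mutant and 145 FPKM in control (-1.20). Condensate and papilla genes gave 2 lower of 4, muscle genes 3 of 4 and adipocyte genes 1 of 2, with 0 higher in each. The lower adipocyte gene, Fabp4, and 1 lower muscle gene, Myh8, reached 1 FPKM through the control library alone. The part of these cell types in the values of the lower ligands was not tested.

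In the rest of the pathway, epidermal beta-catenin target genes gave 3 lower and 0 higher of 11 (median -0.69), with 5 lower without centring and 4 by like GC content. Lef1 stood at 2.50 FPKM in mutant and 9.03 FPKM in control (-1.34), Tcf7, another LEF/TCF factor, at 0.75 FPKM in mutant and 4.24 FPKM in control (-1.40), and Axin2 at 19.0 FPKM in mutant and 17.8 FPKM in control (0.27). Secreted inhibitors, again with Kremen1 and Kremen2, gave 3 lower of 7, and R-spondins and their receptors 2 lower of 5. Receptors gave 1 lower of 11, the cytoplasmic and nuclear list 3 lower of 16, and secretion and editing 1 lower of 5. None of these lists held a gene at least 2-fold higher. Of the 11 genes lower in these lists, each counted once, 6 reached 1 FPKM through the control library alone, Lgr4, Lgr6, Ror1, Sfrp2, Tcf7 and Wif1, so the filter itself favours lower genes and these counts support no direction. The planar polarity and calcium list and the 2 other Wnt ligands at 1 FPKM held none past 2-fold, and 1 lower each without centring or by like GC content. Porcn stood at 14.4 FPKM in mutant and 10.6 FPKM in control (0.58), and Wls at 3.93 FPKM in mutant and 6.81 FPKM in control (-0.49).

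Dermis and epidermis differed in which ligands they held. In the En1cre;Cyp26b1f/- pair, Wnt5a, Wnt6, Wnt10a and Wnt11 were at least 4-fold higher in dermis on the log2(FPKM + 1) scale and Wnt7b at least 4-fold lower, where 19.0% of genes were higher and 7.05% lower. In the control pair, Wnt5a, Wnt6, Wnt10a, Wnt10b and Wnt11 were at least 4-fold higher in dermis and 0 ligands lower, where 12.4% of genes were higher and 6.26% lower. Wnt5a stood at 19.0 FPKM in control dermis and 1.34 FPKM in control epidermis, and Wnt6 at 127 FPKM in control dermis and 8.51 FPKM in control epidermis. Wnt4 was higher in dermis in the control pair (0.97) and lower in dermis in the mutant pair (-1.42). The median of all genes was 0.76 in the mutant and 0.41 in the control pair, and relative to it Wnt10a in the mutant pair (1.62) was within 4-fold and Wnt4 (-2.18) was past it, while the 5 ligands of the control pair stayed past it. Follicle epithelium genes also stood higher in dermis, with sums of 114 FPKM in mutant dermis and 9.11 FPKM in mutant epidermis, and of 1484 FPKM in control dermis and 115 FPKM in control epidermis. Krt5 and the other basal keratinocyte markers except Krt15 were higher in dermis in both pairs as well. Suprabasal Ivl, Dsg1a and Dsc1 were far lower in dermis. The part of epithelial RNA in the ligands' values was not tested. The tissues come from tables that were normalised apart and from 1 library each, so these values are a description.

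**Figure D4:**
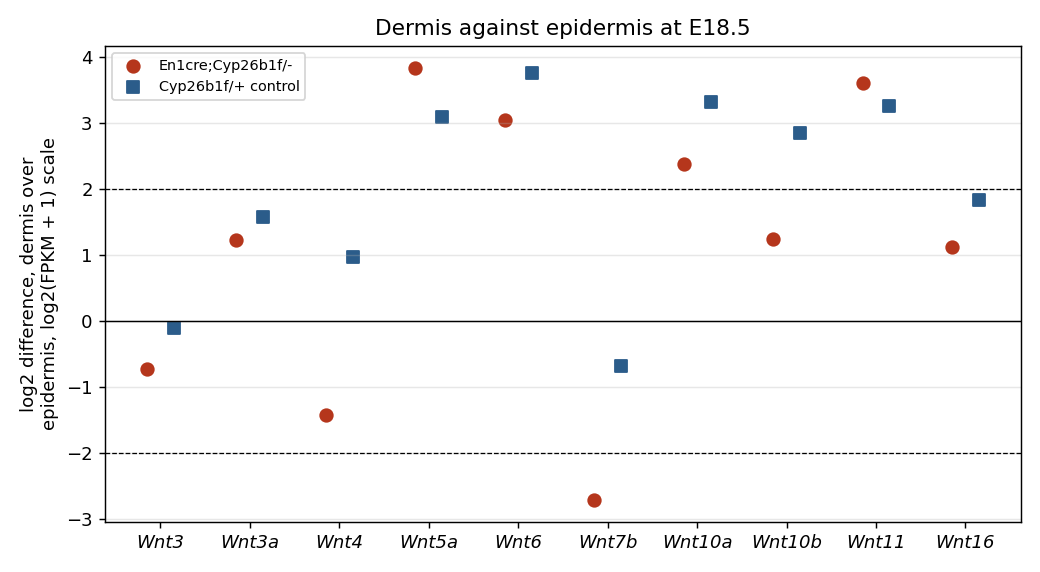
Points give the log2 difference of each ligand, dermis over epidermis, on the log2(FPKM + 1) scale, with circles for the En1cre;Cyp26b1f/- pair and squares for the control pair, and dashed lines at 4-fold. Wnt5a, Wnt6, Wnt10a and Wnt11 lie above the upper line in both pairs, although Wnt10a in the mutant pair does not relative to the median of all genes (1.62), and Wnt4 lies at -1.42 in the mutant and 0.97 in the control pair.

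Across the 6 columns, the genes whose centred log2(FPKM + 1) profile lay closest were named for the 3 most abundant ligands, out of 9965 genes. For Wnt7b these were Slc25a43 (Euclidean distance 0.19) and Wwc1 (0.49), and for Wnt6 they were Scube3 (0.41) and Id3 (0.51). For Wnt4 they were Wnk2 (0.54) and the ribosomal protein gene Rpl36 (0.49), whose copies may share reads. Some of these values were low. Slc25a43 stood at 0.31 FPKM in mutant and 2.65 FPKM in control dermis, and Scube3 at 0.07 FPKM in mutant and 1.01 FPKM in control epidermis. The added 1 FPKM shrinks differences at such levels, so the distances can understate them. Each distance rests on 6 values from 3 tables normalised apart.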

How the data were processed

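Build mm9 is named in the submitters' processing notes, with the tools Cuffdiff 1.3.0, Cufflinks, TopHat 1.3.2 and Bowtie 0.12.7.0 and no role for any. The tables deposited by the authors hold 1 row per RefSeq transcript (27641 rows) with FPKM, log2 fold, statistic, p-value and q-value. Whether strand was used is not given in the sources used here. FPKM were summed per symbol, and genes with a failed estimate were left out of medians and counts. The SE is the deposited log2 fold divided by the deposited statistic, and the normal p on both sides of that statistic differed from the authors' p-value by at most 0.00401 at E16.5. The centred statistic was adjusted by Benjamini-Hochberg at 0.05. A gene was called when at least 1 transcript passed one way and none the other. The procedure was run on simulated data with normal noise of the same implied SE. That run therefore cannot check the SE itself or the pooling of libraries. Locus starts had 1 added. The files give FPKM and no read counts, so count models were not applied. The members, the pathway lists and the choice to centre were made with earlier results of these data known. Named were all members, and from each list at most 4 genes of the largest fold plus Axin2, Lef1, Dkk4, Wls and Porcn. Further markers (among them Krt5, Krt15, Ivl, Twist2 and Krt71) were named after their values were seen. The listed genes Trabd2b and Flg were not matched. Python 3.11.15, pandas 2.3.3 and scipy 1.17.1 were used.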

Additional observations from a re-analysis of the deposited data

Results flagged for a closer look

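Relative to the median gene, 3 ligands had folds of opposite sign in dermis and epidermis, with 1 library a group, so the difference was not tested. Wnt4 had a log2 fold relative to the median gene of -2.51 in dermis and 0.18 in epidermis, a difference of -2.69, but its epidermal levels were the same to 3 digits (117 FPKM in mutant and in control), so the epidermal sign comes from the subtracted median. Wnt7b had -1.65 in dermis and 0.68 in epidermis, a difference of -2.33, and its epidermal fold was above 0 under each setting tried, from 0.50 without centring to 0.71 with a pseudocount of 0.1. Wnt10b had -1.81 in dermis and 0.09 in epidermis, a difference of -1.90, and its epidermal value was -0.02 against genes of like GC content, -0.09 without centring and -0.06 with the median over genes of at least 10 FPKM, so its sign there turns with the setting.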

How the results depend on the processing

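At E16.5 the authors' q without centring called 4 ligands higher and 1 lower in place of 2 and 3. The other settings, with centring on transcripts of at least 10 FPKM, agreement of every transcript, a filter at 1 FPKM, or centring by GC content (chosen after seeing the data), gave 2 and 3. In dermis the count of ligands at least 2-fold lower was 5 with centring by GC content, where 11.3% of all genes were lower. It was 7 without centring (11.3% of all genes) and 8 under the other settings (12.6% to 17.7%). In epidermis, where 0 were reported, the count lower was 5 with a pseudocount of 0.1, 2 with 0.5, 3 without centring and 3 with the median over genes of at least 10 FPKM, where 12.3%, 8.11%, 8.05% and 7.51% of all genes were lower, in that order. Between tissues, the mutant pair had 3 ligands at least 4-fold higher in dermis with upper quartile scaling, where 15.4% of all genes were higher. With the median of all genes subtracted (chosen after seeing the data) 3 were higher and 2 lower, where 11.1% of all genes were higher and 11.3% lower. With a pseudocount of 0.1 the mutant pair had 5 higher, where 29.99% of all genes were. The control pair had 7 higher with a pseudocount of 0.1, where 20.5% of all genes were. It had 5 otherwise, where 12.4% of all genes were higher as reported, 9.97% with upper quartile scaling and 8.13% with the median subtracted. Of 180 alternative folds of single ligands, 162 moved by less than the implied SE and 18 by more, 10 of these at E16.5 without centring. At E18.5 that SE was at least 0.48, a wide yardstick within which the epidermal sign of Wnt10b turned. Settings that change only the subtracted median move all 10 ligands of a comparison alike, so the 180 folds are not separate checks. No paired analysis was possible because the E16.5 columns pool the libraries, and for the same reason no library could be left out. Unknown depth limits what can be said of ligands below 1 FPKM.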
